A study of Mus musculus with 36 samples.

Results

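The miR-466, miR-467 and miR-669 families are groups of closely similar mouse miRNAs, most of which are made from one long intron of the gene Sfmbt2. The members described here were all rows of the small RNA table named miR-297, miR-466, miR-467 or miR-669, with any letter, locus number and arm, and they made up 35 of the 469 miRNAs. Of these, 11 belonged to miR-466, 9 to miR-467, 15 to miR-669 and 0 to miR-297. All samples came from B3, a mouse pre-B cell line. The Ikaros line was transduced with an MSCV retrovirus for HA-tagged Ikaros fused to ERt2, the estrogen receptor's hormone-binding part, followed by IRES-GFP. Ikaros is a transcription factor of lymphocytes, and 4-hydroxy-tamoxifen (4-OHT) sends the fusion to the nucleus. The control line carried the same kind of vector with ERt2 and GFP but without Ikaros, and both lines were GFP-sorted populations. Each line was collected at 0, 2, 6, 12, 18 and 24 h of 0.5 uM 4-OHT, and each of these 12 groups had 3 samples. The dose stands in the labels of the 0 h samples too, although by the study's methods they had no drug.

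Sfmbt2 encodes a Polycomb group protein. Its miRNA cluster is found in rodents, arose by repeated duplication of simple-repeat sequence, and is best known from embryonic stem cells and placenta. A mature miRNA finds its target mRNAs mainly by its seed, bases 2 to 8, and lowers their stability or translation. A hairpin can yield one mature miRNA from its 5′ side (5p) and another from its 3′ side (3p). Since the mature miRNAs of these families differ by few bases, reads may have been shared between members, and the split of the signal among them is uncertain.

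Only 2 of the 35 members were matched to a RefSeq sequence (GRCm38.p6), and both sequences, given below, hold a dinucleotide repeat. Both are miR-466 members without a hairpin in Sfmbt2, and no miR-467 or miR-669 sequence was matched. Letters are given 5′ to 3′ with the seed in capitals.
miR-466k: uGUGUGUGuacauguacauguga
miR-466i-3p: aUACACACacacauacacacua
Among the 391 measured miRNAs with a RefSeq sequence, the letters GUGUGU, read on the mature strand alone, stood in 3 (0.77%) and ACACAC in 2 (0.51%). These 391 leave out 33 of the 35 members, so the shares do not cover the families. Besides miR-466k, those with GUGUGU were miR-1187 and miR-32-3p. They were lower in the Ikaros line at 24 h, by −1.39 ± 0.27 (SE, adjusted p = 0.000117) and −0.89 ± 0.22 log2 units (adjusted p = 0.00178, limma). Of all miRNAs, 39.9% were called at 24 h and 22% called and lower. Besides miR-466i-3p, ACACAC stood in miR-362-3p of the Clcn5 gene, which was higher by 3.46 ± 0.30 (adjusted p = 2.42e-10). Whether the letters go with the direction was not tested.

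All 35 members were matched to a hairpin by name on GRCm38 (mm10), miR-466a-5p by hand to Mir466. Sfmbt2 lies on chromosome 2 at 10370510-10595253 on the plus strand. Hairpins of 33 members lay in intron 11 of its transcript with 23 exons (10461473-10523944), where 42 member hairpins spanned 51.6 kb, from 10466663 to 10518279, and 0 of them overlapped an exon. RefSeq places 72 miRNA hairpins within the gene, 5 of them named Mir297. Of the members, 28 had 1 hairpin and 7 had several, up to 10 for miR-467a. The hairpin of miR-466k lay on chromosome 3 (85467377-85467498, within Gm37240 on the opposite strand) and that of miR-466i-3p on chromosome 13 (17747473-17747593, within Cdk13 on the opposite strand). For miR-466f, 3 hairpins lay in Sfmbt2 and 1 between genes on chromosome 13 (71107089-71107209).

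The values are log2 normalised expression. They ranged from 0.09 to 19 over the table, with sample medians of 3.70 to 4.15, and carry no information on depth. The median SD within groups was 0.34 over the members and 0.36 over all miRNAs. Of the markers checked, miR-181a-5p (mean 18.15), miR-142-3p (13.21) and miR-155-5p (10.77), which are abundant in blood cells or their B lineage, were high. MiR-150-5p, a miRNA of mature lymphocytes, was at 3.90 and the myeloid miR-223-3p at 2.11. Epithelial miR-200c-3p and miR-141-3p were at 4.74 and 1.52, whereas miR-9-5p, listed for neurons, was at 13.30. The 1 liver, 3 muscle and 4 embryonic stem cell miRNAs of the list and neuronal miR-124-3p had 0 rows among the 469.

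The families were expressed in the pre-B cells over a wide range. Levels are compared on the log2 scale, mature miRNAs being of about one length. The most abundant member was miR-467a-5p with a mean of 10.45 over the 36 samples, at the 87.4th percentile of all miRNAs, and the second was miR-467c-5p with 9.0. Next came miR-467e-5p (7.17), miR-467d-5p (7.11), miR-669o-5p (7.05), miR-669f-5p (6.98), miR-466c-5p (6.96), miR-669b-5p (6.85), miR-669d-5p (6.81) and miR-669l-5p (6.31). These neighbours from miR-467e-5p to miR-669d-5p lay within about their SD within groups (0.18 to 0.38), so their order is not resolved. A middle group held miR-466n-3p (5.99), miR-466k (5.76), miR-669f-3p (5.64), miR-467b-5p (5.43), miR-669c-5p (5.39), miR-466i-3p (4.84), miR-466f (4.79), miR-669k-5p (4.15), miR-466d-5p (3.99), miR-669p-3p (3.80), miR-467a-3p (3.80), miR-669e-5p (3.76), miR-467e-3p (3.72) and miR-466m-3p (3.50). The lowest were miR-669g (3.2), miR-467d-3p (3.14), miR-466g (3.11), miR-669h-5p (3.00), miR-466o-3p (2.98), miR-669b-3p (2.71), miR-466l-3p (2.50), miR-669e-3p (2.15), miR-669m-3p (2.11), miR-467c-3p (1.98) and miR-466a-5p (1.86). The 17 members named 5p had a median level of 6.81 and the 14 named 3p one of 3.32.

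The lines were compared at each time to ask which members differed when Ikaros was nuclear, against cells given the same drug. Members were lower in the Ikaros line late in the time course. By limma with Benjamini-Hochberg adjustment over the 469 miRNAs, 0 of the 35 differed at 0 h, when 8.53% of all miRNAs did, and again 0 at 2 h, when 11.3% did. The 6 h samples gave 3 members (15.1% of all miRNAs) and the 12 h samples 4 (21.7%). After 18 h of the drug 15 members differed (29.9% of all) and after 24 h 19 (39.9%), and each of these calls was lower in the Ikaros line, which held for 16.8% of all miRNAs at the first of these times and 22% at the last. The members called at 6 h and 12 h were lower too, whereas miR-669g was called higher at 6 h with sample medians subtracted (0.82 ± 0.24) or under quantile normalisation (0.76 ± 0.24), and with culture batch as a block (0.66 ± 0.22, adjusted p = 0.0427). That block, which pairs the samples of both lines, left 2 members called at 6 h, miR-669g higher and miR-466n-3p lower. MiR-669l-5p was called higher at 12 h with sample medians subtracted (0.60 ± 0.22). At unadjusted p under 0.05, the counts at 0 h and 2 h were 0 and 2, against 75 and 123 of all 469 miRNAs. In time order, the median member difference was −0.17, −0.04, −0.17, −0.27, −0.70 and −0.76 log2 units, whereas the median of all miRNAs stayed between −0.07 and 0.07. Averaged over the 6 times, 21 members were called and lower, against 52.5% of all miRNAs called and 26.4% called and lower, and miR-669g was called higher under both other scalings (0.32 ± 0.10 and 0.31 ± 0.10).

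**Figure D1:**
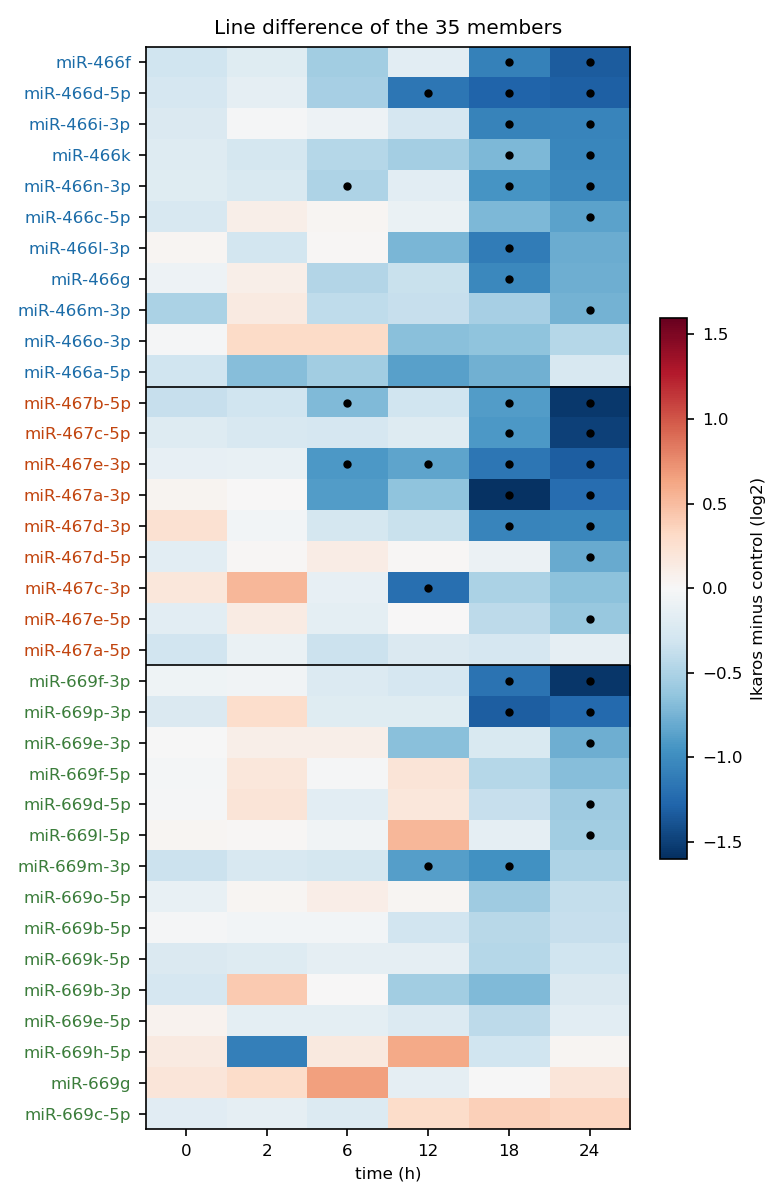
Ikaros minus control line (log2, colour) for each of the 35 members (rows, grouped by family) at 6 times in h (columns), with a dot where the adjusted p was under 0.05. The dots number 0 at 0 h and 2 h, 15 at 18 h and 19 at 24 h, and all of them lie on blue, that is lower, cells in the values as deposited without a block for culture batch.

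The count at 24 h moved with the scaling and with single replicates. With the median of each sample subtracted, which raised the median difference of all miRNAs from −0.07 to 0.17, 11 members were lower and the member median was −0.52. It was 12 without replicate 2 and 11 without replicate 4, and at 18 h it was 5 without replicate 2. Under quantile normalisation 19 members were lower at 24 h and miR-669c-5p was higher, by 0.55 ± 0.22 (SE, adjusted p = 0.0431). Of the 19 members, 9 passed the test under all 9 alternatives, namely miR-467b-5p, miR-467c-5p, miR-467e-3p, miR-466d-5p, miR-466f, miR-466k, miR-466n-3p, miR-669f-3p and miR-669p-3p. The labels name no sequencing batch. By the drawing of the design in the study's methods, the control samples of 2 h to 18 h were sequenced in another batch than most Ikaros samples, and line and sequencing batch cannot be told apart in that span other than by the authors' batch correction, whereas samples of both lines at 0 h and at 24 h shared a sequencing batch. For that correction the authors ran some samples in both sequencing batches. These repeats are averaged in the values used here. In the control line alone, in the corrected values, 2 h to 18 h against 0 h and 24 h gave 0 members by limma and 0.213% of all miRNAs. At unadjusted p under 0.05 it gave 4 members and 44 of all miRNAs. Since batch was already corrected in these values, the count cannot show whether line differences at 2 h to 18 h are free of it. The 0 h samples also have culture batches of their own.

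In each of the 3 families some members were called and lower at 24 h, with different shares, against 22% of all miRNAs. For miR-467 this was 7 of 9 members, with a median of −1.04, for miR-466 7 of 11 (−0.86) and for miR-669 5 of 15 (−0.38). Of the miR-669 calls, only miR-669f-3p and miR-669p-3p held under all alternatives. Whether the families differ in this was not tested. All 3 Ikaros samples lay below all 3 control samples for 22 of the 35 members at 24 h, which was the case for 30.3% of all miRNAs. The samples of both lines overlapped for the other 13.

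MiR-467c-5p had the smallest p of the members. Its control samples at 24 h read 9.37, 9.48 and 9.30 and its Ikaros samples 7.77, 8.08 and 7.82. The lines did not overlap, and the Ikaros line was 2.81-fold lower (−1.49 ± 0.15 log2 units, SE, adjusted p = 3.07e-09). In the Ikaros line its mean went from 9.09 ± 0.06 (SD, n = 3) at 2 h through 9.02 ± 0.03 at 6 h, 8.86 ± 0.16 at 12 h and 8.49 ± 0.18 at 18 h to 7.89 ± 0.16 at 24 h. Control means stayed between 9.07 and 9.42. MiR-467b-5p had control values of 6.03, 5.81 and 6.32 at 24 h and Ikaros values of 4.42, 4.53 and 4.59. These did not overlap either, with a difference of −1.54 ± 0.25 (2.91-fold lower, adjusted p = 1.21e-05).

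**Figure D2:**
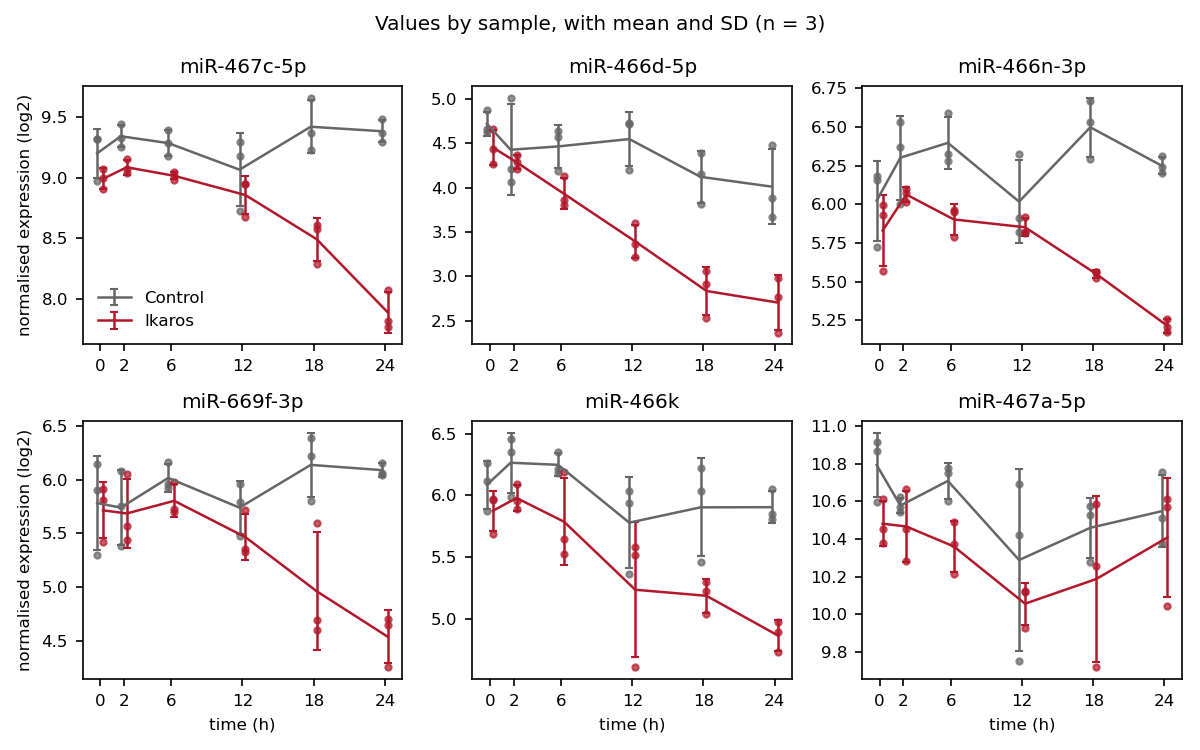
Normalised expression (log2, vertical axis, scaled to each miRNA) of 6 members at 0 to 24 h (horizontal axis) in the control (grey) and Ikaros (red) lines, with points for samples and lines with bars for the mean and SD of 3. The lines part by 24 h for the first 5 members, miR-467c-5p reaching 7.89 against 9.38, while miR-467a-5p overlaps between the lines at 24 h.

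MiR-466d-5p was lower at each time from 12 h on. Its Ikaros samples read 4.28, 4.21 and 4.37 at 2 h. They read 3.6, 3.22 and 3.36 at 12 h, then 2.37, 2.99 and 2.76 at 24 h. Its control samples read 4.73, 4.20 and 4.72 at 12 h and 3.89, 3.66 and 4.48 at 24 h, above the Ikaros samples at both times. The difference was −1.15 ± 0.25 at 12 h (adjusted p = 0.000885), −1.29 ± 0.25 at 18 h (adjusted p = 0.000139) and −1.31 ± 0.25 at 24 h (2.47-fold lower, adjusted p = 9.91e-05).

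MiR-466n-3p had even replicates at 24 h. Its Ikaros samples at 24 h read 5.26, 5.21 and 5.18 and its control samples 6.2, 6.24 and 6.31. The groups did not overlap, the Ikaros line being 2.05-fold lower (−1.04 ± 0.17, adjusted p = 1.32e-05), and the difference was −0.49 ± 0.17 at 6 h (adjusted p = 0.0421) and −0.95 ± 0.17 at 18 h (adjusted p = 5.54e-05). At 6 h its call and those of miR-467b-5p (adjusted p = 0.0493) and miR-467e-3p (0.0421) were each lost without any one replicate. MiR-669f-3p had Ikaros values of 4.65, 4.25 and 4.71 at 24 h and control values of 6.16, 6.04 and 6.06. The groups did not overlap, and the difference was −1.55 ± 0.25 (2.93-fold lower, adjusted p = 1.21e-05). At 18 h its Ikaros samples read 4.60, 4.69 and 5.59, with replicate 4 near the control values of 5.80, 6.22 and 6.39.

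The members that have no hairpin in Sfmbt2 were lower as well. MiR-466k read 5.81, 5.85 and 6.05 in the control line at 24 h and 4.97, 4.89 and 4.73 in the Ikaros line. The groups did not overlap (−1.04 ± 0.23, 2.05-fold lower, adjusted p = 0.000653). MiR-466i-3p read 4.55, 5.10 and 5.27 in the control line and 4.04, 3.27 and 4.45 in the Ikaros line. Its highest Ikaros sample lay just under the lowest control sample, and the difference was −1.05 ± 0.34 (adjusted p = 0.0138), a call that was lost with sample medians subtracted or without replicate 2 or 4. MiR-466f, with hairpins inside and outside Sfmbt2, read 5.01, 4.78 and 5.23 against 3.55, 3.82 and 3.65. It was lower by −1.34 ± 0.32 log2 units (2.52-fold, adjusted p = 0.0015), without overlap of the lines.

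**Figure D3:**
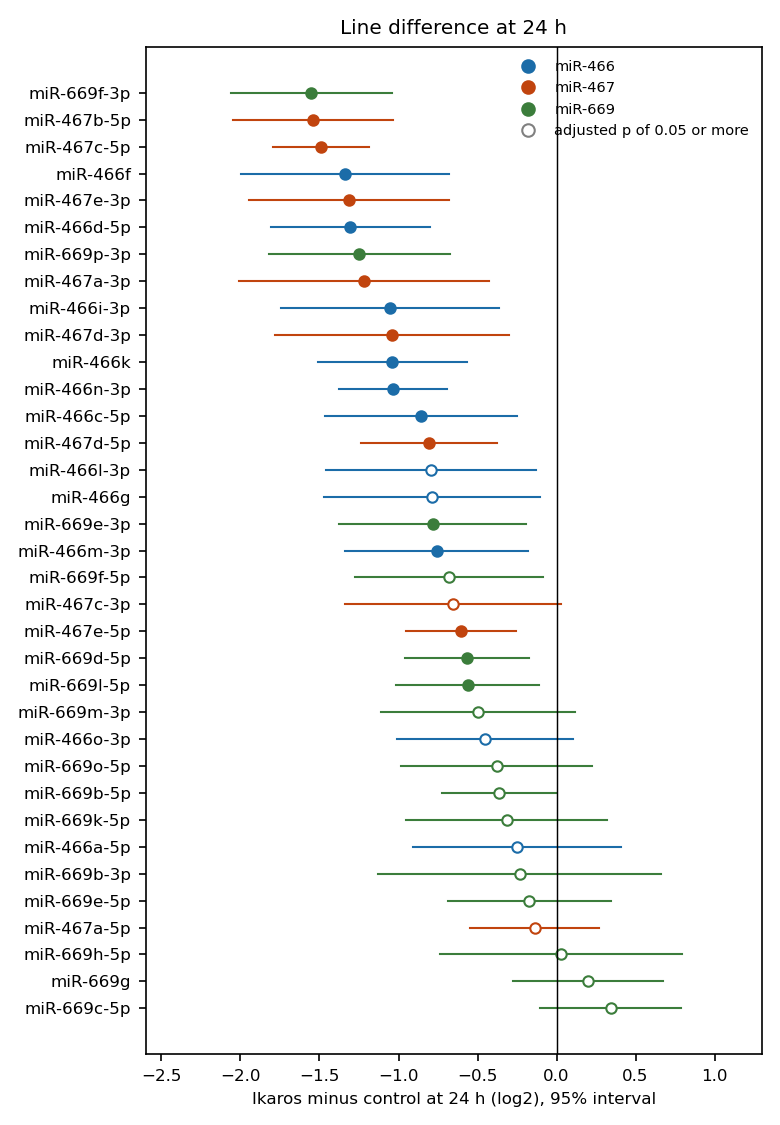
Ikaros minus control line at 24 h (log2, horizontal axis) with its 95% interval for each of the 35 members, coloured by family, filled where the adjusted p was under 0.05. The points run from −1.55 for miR-669f-3p to 0.34 for miR-669c-5p, and the 19 filled points all lie left of 0 in the values as deposited (under quantile normalisation miR-669c-5p was called above 0).

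Other members described by the rule gave the following values at 24 h. MiR-467a-3p read 3.88, 4.33 and 3.38 in the control line and 3.22, 2.41 and 2.31 in the Ikaros line, a difference of −1.22 ± 0.39 (adjusted p = 0.0133) that was lost without replicate 2. MiR-467e-3p read 4.15, 4.13 and 3.70 against 3.25, 2.51 and 2.28 (−1.32 ± 0.31, adjusted p = 0.00117), and it was called at each time from 6 h on, although its call at 6 h was lost with sample medians subtracted (adjusted p = 0.0735), under quantile normalisation (0.0891) or with culture batch as a block (0.0574), and that at 12 h under quantile normalisation (0.0753) or with the block (0.0597). MiR-669p-3p read 3.77, 4.10 and 4.34 against 2.86, 2.78 and 2.82 (−1.25 ± 0.28, adjusted p = 0.000681). In all 3 the lines did not overlap, and replicate 1 was the highest Ikaros sample of miR-467a-3p and of miR-467e-3p. MiR-466c-5p, the most abundant of the miR-466 family, read 7.66, 6.93 and 7.58 against 6.83, 6.80 and 5.97 (−0.86 ± 0.30, adjusted p = 0.0222), and its call was lost with sample medians subtracted or without replicate 1 or 4. Of the members chosen by the rule, miR-669o-5p, the most abundant of its family, did not pass at 24 h (7.39, 7.21 and 7.08 against 7.13, 7.13 and 6.29, −0.38 ± 0.30, adjusted p = 0.335). Nor did miR-669m-3p (2.58, 1.96 and 1.96 against 1.86, 1.74 and 1.41, −0.50 ± 0.30, adjusted p = 0.189), whose difference was −0.97 ± 0.30 at 18 h (adjusted p = 0.0135). The other calls at 24 h, miR-467d-3p, miR-467d-5p, miR-669e-3p, miR-466m-3p, miR-467e-5p, miR-669d-5p and miR-669l-5p, ranged from −1.04 to −0.56.

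The most abundant member, miR-467a-5p, was not called at 24 h. It read 10.38, 10.51 and 10.76 in the control line at 24 h and 10.05, 10.57 and 10.61 in the Ikaros line. The groups overlapped, and the difference was −0.14 (95% interval −0.55 to 0.27, adjusted p = 0.619), or 0.09 with sample medians subtracted. Averaged over the 6 times it was −0.24 ± 0.08 (adjusted p = 0.0163), a call lost with sample medians subtracted or without replicate 1 or 4. On the linear scale miR-467a-5p held 38.9% ± 2.3 (SD, n = 3) of the summed value of the members in the control line at 24 h and 51.5% ± 7.3 in the Ikaros line. All 35 members together held 0.288% ± 0.0185 of the total of the table in the control line at 24 h and 0.18% ± 0.0223 in the Ikaros line. The members without miR-467a-5p held 0.176% ± 0.005 in the control line at 24 h, from 0.173% to 0.181%, and 0.0865% ± 0.0019 in the Ikaros line, from 0.085% to 0.0886%. At 2 h these shares were 0.162% ± 0.015 and 0.154% ± 0.031. Samples of the lines overlapped in this share at 2 h (0.146% to 0.175% and 0.121% to 0.183%) and at 12 h. They did not overlap at 6, 18 and 24 h, nor at 0 h, when the control line held 0.151% to 0.175% and the Ikaros line 0.129% to 0.143%. The remaining members with values above 0 at 24 h, none of them called, were miR-669c-5p (0.34 ± 0.22), miR-669g (0.20 ± 0.23) and miR-669h-5p (0.03 ± 0.37).

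The change along the induction was followed within each line from 2 h to 24 h, times that share culture batches. In the control line, by the drawing of the design, these times were mostly sequenced in different batches. The change there thus rests on the authors' batch correction. In the Ikaros line 20 members fell (28.6% of all miRNAs changed and 18.8% fell), with a median over the 35 of −0.67 against −0.11 over all miRNAs. The strongest by p were miR-467c-5p (−1.19 ± 0.15, adjusted p = 4.52e-07), miR-466d-5p (−1.58 ± 0.25, adjusted p = 1.37e-05) and miR-466n-3p (−0.85 ± 0.17, adjusted p = 0.000359), followed by miR-466k (−1.11 ± 0.23) and miR-669p-3p (−1.35 ± 0.28), both with an adjusted p of 0.000576. By family these were 8 of the 9 miR-467, 7 of the 11 miR-466 and 5 of the 15 miR-669 members. In the control line 0 members changed (0% of all miRNAs) by limma. At unadjusted p under 0.05 the control line had 0 members and 33 of all miRNAs, and its member median was 0.00. The Ikaros count was 8 without replicate 2 and 12 without replicate 4.

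The difference between these changes was tested itself, a comparison added after the data were seen. It too crosses sequencing batches in the control line. For 7 members the Ikaros line fell further than the control line (14.3% of all miRNAs differed and 8.96% were lower). These were miR-467c-5p, miR-669f-3p, miR-669p-3p, miR-467b-5p, miR-466d-5p, miR-466n-3p and miR-467e-5p, by −1.53 to −0.74, and the count was 2 or 3 without any one replicate. Against 0 h, where the culture batches are others, the line difference at 24 h had moved for 5 members, all lower (6.61% of all miRNAs were called and lower). The largest was miR-669f-3p (−1.48 ± 0.35, adjusted p = 0.00457), then miR-467c-5p (−1.28 ± 0.21, adjusted p = 9.43e-05), and the count was 1 or 2 without any one replicate. Over all 6 times, 5 members (14.3%) had a line difference that varied with time by a moderated F-test, close to the 13% of all miRNAs. The count was 1 without replicate 1, 1 without replicate 2 and 3 without replicate 4. The comparisons of this paragraph share their 24 h samples and are not independent of the difference at 24 h.

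Both arms were measured for 7 hairpin names, which allows the ratio of the arms to be compared within each sample. The 3p arm was called lower at 24 h for 5 of them and the 5p arm for 3, where 22% of all miRNAs were called and lower. In the whole dataset, both arms were present for 129 hairpin names. The ratio of the 5p to the 3p arm differed between the lines at 24 h for 0 of the 7 (4 at unadjusted p under 0.05, limma) and for 11.6% of the 129. Averaged over the 6 times, it was higher in the Ikaros line for 3 of the 7, against 18.6% of the 129 that differed in either direction. These were miR-467e (0.55 ± 0.12 log2 units, SE, adjusted p = 0.00111), miR-669f (0.42 ± 0.12, adjusted p = 0.0176) and miR-467a (0.48 ± 0.16, adjusted p = 0.037), and the count was 1 or 2 without any one replicate. For miR-467c the ratio at 24 h was 7.63 ± 0.50 (SD, n = 3) in the control line and 6.80 ± 0.40 in the Ikaros line, a difference of −0.83 that did not pass (95% interval −1.54 to −0.13, adjusted p = 0.0966). The arm results were added after the data were seen.

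**Figure D4:**
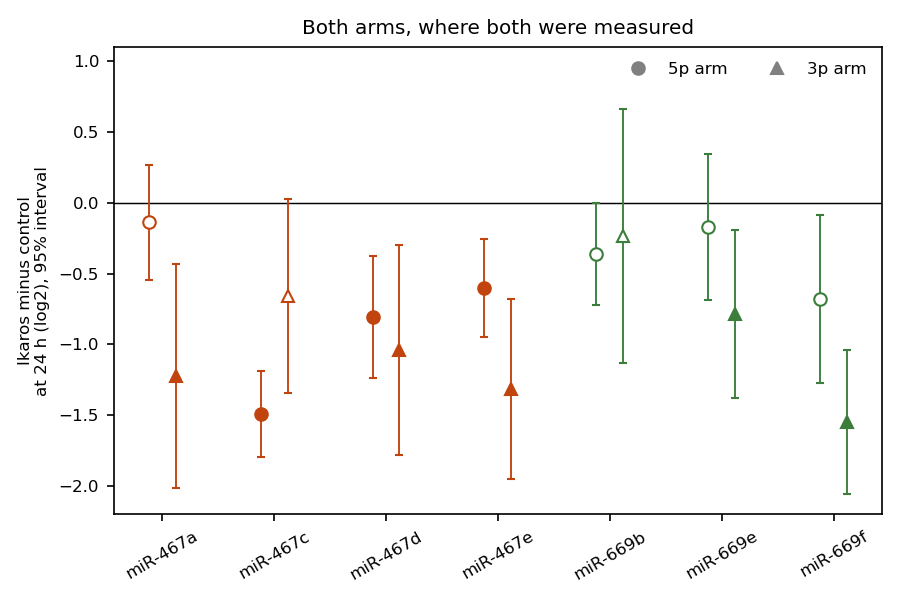
Ikaros minus control line at 24 h (log2, vertical axis) with its 95% interval for the 5p (circle) and 3p (triangle) arm of the 7 hairpin names with both arms measured, filled where the adjusted p was under 0.05. The 3p arm of miR-467a is at −1.22 and its 5p arm at −0.14, and the intervals of the arms overlap for miR-467a as for miR-467c.

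Place in the intron and number of hairpins were set beside the difference at 24 h as a description. The calls counted here were all lower, which held for 22% of all miRNAs. Of the 28 members with 1 hairpin, 14 were called and the median was −0.72, and of the 7 with several hairpins 5 were called and the median was −0.86. Among the members with a single hairpin in the intron, 14 lay nearer its first member hairpin, with 6 calls and a median of −0.61, and 12 nearer the last, with 6 calls and a median of −0.79.

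**Figure D5:**
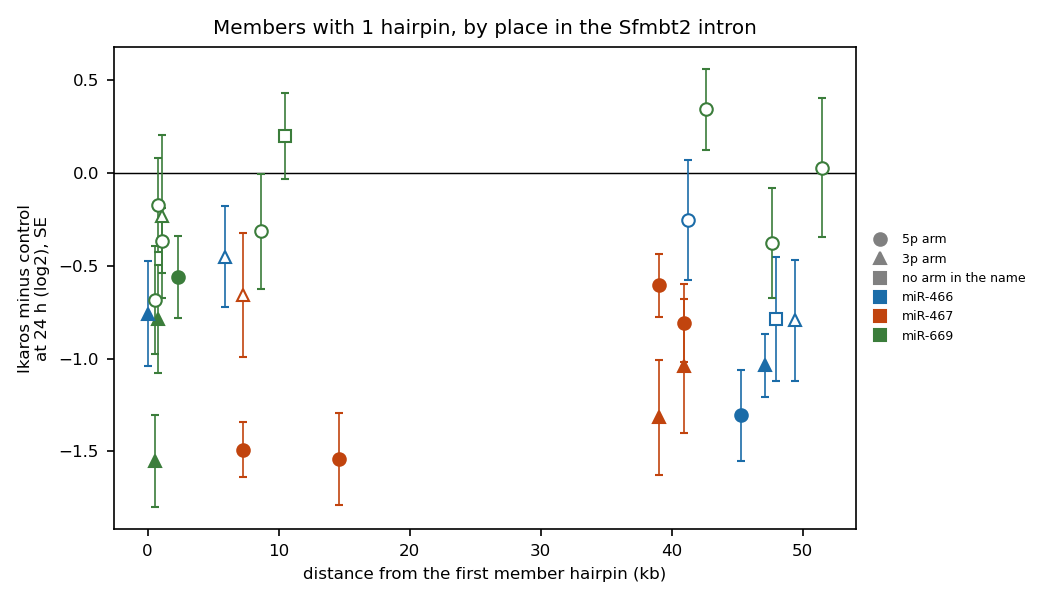
Ikaros minus control line at 24 h (log2, with SE, vertical axis) for members with 1 hairpin, by its distance in kb from the first member hairpin in the Sfmbt2 intron (horizontal axis), with shape for the arm and colour for the family, filled where the adjusted p was under 0.05. Values from −1.55 to 0.34 are spread along the 51.6 kb, with values near 0 and below −1 at both ends.

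The members were lower more often than other miRNAs of like level were, in counts. Of the 256 other miRNAs within the members' range of mean level, 61 were called and lower at 24 h (23.8%), with a median of −0.06, against 54.3% of the members. The 10 measured miRNAs of the Clcn5 introns, the other intronic cluster set beside them, were all called and higher at 24 h, with a median of 3.08, and 9 of them were higher already at 0 h. These lists are given as counts and medians, and their difference was not tested. The samples are bulk RNA, in which fewer expressing cells and less RNA per cell cannot be told apart.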

How the data were processed

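Small RNA libraries of 36 samples (12 groups of line and time, 3 samples each) were sequenced by the authors. Per their methods, reads were aligned with Novoalign to the mouse miRNAs of miRBase and counted with multiBamCov. NOISeq served to drop miRNAs under a CPM minimum, cqn to remove GC bias, TMM to scale the samples and ComBat to adjust for sequencing batch. Some samples were run in both sequencing batches as technical replicates to estimate the batch effect, and these were then averaged. The submitters' processing notes name Novoalign, bedtools and mm10. The deposited values are log2 normalised expression of 469 miRNAs. They hold no counts. The authors' methods give a range of reads per sample, but the depth of each single sample is unknown. Precision rests on 3 replicates per group, with the spread pooled over the 12 groups. No columns were identical.

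The values were fitted with limma 3.58.1 in R 4.3.3 (lmFit, then eBayes with trend), 1 mean for each of the 12 groups, two-sided moderated tests and Benjamini-Hochberg adjustment over the 469 miRNAs, and an adjusted p under 0.05 was a call. Intervals are 95% intervals of this fit. The fit was tested on simulated data. Arm ratios were fitted likewise over 129 hairpin names. Hairpins were matched by name to GENCODE vM21 and RefSeq symbols. Figures used Python 3.11.15 and matplotlib 3.10.9. The members and lists were chosen with earlier results of these data known. Values by sample are given for the most abundant member of each family, the 10 with the smallest p for the mean line difference and those that changed with time (up to 5 per contrast), 14 in all, and for others named after their values were seen.

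The labels name batches 4, 5 and 6 for 0 h and others, 1, 2 and 3, for all later times, without saying of what kind. The study's methods use these numbers for biological replicates, and they are called culture batches here. Same-numbered samples of both lines share a batch, which pairs them. Across the 18 pairs their deviations from the group means correlated at 0.239 on average (−0.0519 to 0.615). Alternatives were sample medians subtracted, quantile normalisation, no trend, a mean log2 value of at least 3, the compared groups alone, culture batch as a replicate block and each replicate left out.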

Additional observations from a re-analysis of the deposited data

Results flagged for a closer look

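For 7 members a change of the Ikaros minus control difference with time was called in any of 3 related comparisons that share samples. The share of all miRNAs called in any of them was not counted. The moderated F-test over all 6 times called 14.3% of the members, close to the 13% of all miRNAs. For 24 h beyond 0 h, 14.3% of the members and 6.61% of all miRNAs were called and lower. For 2 h to 24 h beyond the control line these shares were 20% and 8.96%. That last comparison was added after the data were seen, and miR-467e-5p was called in it alone. Each of the 3 counts was smaller when any replicate was left out. Between 0 h and 24 h the line difference moved by −1.28 log2 units for miR-467c-5p, −1.48 for miR-669f-3p, −1.17 for miR-467b-5p, −1.04 for miR-466d-5p and −0.84 for miR-466n-3p. Over all 6 times the moderated F-test gave an adjusted p (limma) of 6.69e-05 for miR-467c-5p, 0.0062 for miR-669f-3p, 0.0137 for miR-466n-3p, 0.0142 for miR-669p-3p and 0.0273 for miR-466d-5p. From 2 h to 24 h the Ikaros line fell beyond the control line by −1.24 for miR-467c-5p, −1.50 for miR-669f-3p, −1.53 for miR-669p-3p, −1.22 for miR-467b-5p, −1.17 for miR-466d-5p, −0.80 for miR-466n-3p and −0.74 for miR-467e-5p. Groups of 3 samples were not tested for single samples far from the others.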

How the results depend on the processing

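With sample medians subtracted, the members called were 1 at 6 h (miR-669g, higher), 11 at 24 h, 2 for 24 h beyond 0 h, 3 for the variation of the line difference with time and 3 for the change from 2 h to 24 h beyond the control line. The last 3 counts were 3 each under quantile normalisation, under which miR-669g was called higher at 6 h as well. With miRNAs of a mean of at least 3 alone, 2 were called at 12 h. With the compared groups alone, 0 were called at 12 h, 1 at 6 h and 3 for the change beyond the control line. Without 1 replicate each, the counts were 0 at 6 h, 1 to 4 at 12 h, 5 to 13 at 18 h, 11 to 18 at 24 h, 15 to 18 for the mean of the 6 times, 1 to 2 for 24 h beyond 0 h, 1 to 3 for the variation with time, 8 to 17 for the change in the Ikaros line and 2 to 3 beyond the control line, and the arm ratio gave 0 to 1 at 24 h and 1 to 2 for the mean. The cause was not tested, except that leaving out a replicate leaves fewer samples. With culture batch as a replicate block, 19 were called at 24 h and 16 at 18 h, 1 of the 19 members being lost (miR-669l-5p), 6 for 24 h beyond 0 h with miR-669p-3p gained, and 2 at 6 h, 1 of them higher (miR-669g) and 1 lower (miR-466n-3p, the 1 call shared with the 3 members of the fit without the block). Signs turned for miR-467a-5p at 24 h (0.095, medians subtracted), for its change in the Ikaros line between 2 h and 24 h (0.14 with medians subtracted, 0.12 under quantile normalisation, −0.25 to 0.22 without 1 replicate), for miR-669o-5p in that change (−0.74 to 0.30) and for miR-669m-3p at 24 h beyond 0 h (−0.53 to 0.032), none of which was called. Depth that is unknown for each single sample limits the lowest members most.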
